A study of Mus musculus with 8 samples.

Results

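Potassium channel genes were taken as the protein-coding genes whose symbols start with Kcn, with 1 gene left out of the selection, and H3K27me3 was read over each of them as 1 interval from the start to the end of the gene. An interval belonged to a gene when the bases shared with its mm10 RefSeq span were at least 0.5 of the bases covered by either, and the best match was kept. This gave 55 genes among 20278 named genes, of which 13205 are protein-coding, in a table of 50398 intervals. These lie on the numbered chromosomes up to 10 and on X, Y and M. The annotation holds 94 coding Kcn genes on all chromosomes and 57 on the covered ones. Of the 57, Kcna4 had no interval above the limit (its best overlap was 0.345), and the gene left out of the selection and the genes on other chromosomes were not analysed here.

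The cells were mouse embryonic stem cells of the E14tg2a line (background 129SV), in which 2 stable clones, A and B, carried a cRAF-ErT2 cassette, a RAF kinase fusion switched on by 4-hydroxytamoxifen (4OHT) so that ERK signalling follows. All cells were kept in serum and LIF with 2 µM Chir99021, a GSK3 inhibitor, and Chir99021 was replaced for the last 24 h by PD173074, which blocks FGF receptors, at 250 nM. They were then left untreated (0 h) or given 250 nM 4OHT for 2 h, and chromatin fixed in 1% formaldehyde for 10 min was precipitated with an H3K27me3 antibody. Each clone gave 1 library per time, so there were 4 H3K27me3 libraries, 2 per time, and the 4 input libraries of the 8 samples were not analysed here.

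H3K27me3 is a repressive histone mark written by Polycomb repressive complex 2. In embryonic stem cells it lies over many genes that are silent there and are used in later cell types. Potassium channels are membrane pores that let potassium leave the cell, set the resting potential and end the action potential. Voltage-gated channels open on depolarization, inward rectifiers and two-pore channels hold the membrane at rest, and a further group responds to calcium, sodium or pH inside the cell. Accessory subunits change their gating and traffic.

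Density is the count in an interval per kb of its length per 1000000 counts of the library's column. Column totals ranged from 70378127 to 92518605 counts, and the channel genes held 66 to 34230 counts in a library. The median named gene had a density of 0.357, and a gene is called marked here from 4 times that value, 1.43. The labelled cell type was checked on loci of known state: 0 of 7 measured stem cell loci, among them Nanog and Sox2, were marked (0.23 to 0.69 times the median gene), and 5 of 5 measured loci of later lineages, among them Hoxa9 and Sox17, were (8.11 to 15.3 times). Loci of neural cells, where many channels work, were marked in 0 of 4 cases (Snap25, Syp, Map2 and Tubb3). Counts are of reads without molecular identifiers, and in bulk chromatin fewer cells with the mark and less mark per cell cannot be told apart.

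The sequences just before the gene start are shown for the 3 densest channel genes and for Kcna7, a further dense gene. Each is 250 bases long, 5′ to 3′ on the strand of the gene, from RefSeq GRCm38.p6, with every CG in capitals (CG reads the same on both strands). Kcna3 lies at chr3:107035912-107036161 (+), Kcnk15 at chr2:163853500-163853749 (+), Kcns1 at chr2:164171114-164171363 (-) and Kcna7 at chr7:45405710-45405959 (+).
Kcna3: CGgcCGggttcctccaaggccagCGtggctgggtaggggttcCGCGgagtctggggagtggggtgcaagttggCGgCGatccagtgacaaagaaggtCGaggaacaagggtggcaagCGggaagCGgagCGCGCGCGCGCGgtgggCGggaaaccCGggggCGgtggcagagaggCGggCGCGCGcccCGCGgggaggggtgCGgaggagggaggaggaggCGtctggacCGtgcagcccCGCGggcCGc
Kcnk15: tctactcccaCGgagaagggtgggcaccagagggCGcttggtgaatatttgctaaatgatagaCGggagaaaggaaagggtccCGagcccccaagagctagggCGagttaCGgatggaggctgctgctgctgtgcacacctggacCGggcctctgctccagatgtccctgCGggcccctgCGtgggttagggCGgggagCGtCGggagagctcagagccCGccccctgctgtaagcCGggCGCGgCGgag
Kcns1: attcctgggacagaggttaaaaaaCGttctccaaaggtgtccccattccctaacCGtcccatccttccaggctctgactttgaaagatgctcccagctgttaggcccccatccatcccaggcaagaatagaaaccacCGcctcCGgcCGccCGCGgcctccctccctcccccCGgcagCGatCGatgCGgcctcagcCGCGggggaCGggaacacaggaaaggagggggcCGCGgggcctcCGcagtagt
Kcna7: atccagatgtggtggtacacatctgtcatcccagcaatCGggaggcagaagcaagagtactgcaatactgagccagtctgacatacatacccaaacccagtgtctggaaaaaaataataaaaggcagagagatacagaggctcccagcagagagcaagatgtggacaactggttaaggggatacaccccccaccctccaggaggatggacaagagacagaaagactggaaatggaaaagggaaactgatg

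Kcna3 held 31 CG in this window, and 93.9% of the 11015 coding genes that have such a sequence had fewer. Kcnk15 and Kcns1 held 17 each, against a median of 10 over those genes, and 31.4% of the genes had as many or more. Kcna7 held 1, and 92.5% of the genes had as many or more, so among the genes shown dense H3K27me3 stood beside both CG-rich and CG-poor sequence. Kcnj10, marked over its first bases and not over its body (values are given further on), held 17, and Kcnj13, nearly the least dense channel gene, held 3. Further genes went against that contrast: the marked Kcna5 and Kcng4 held 3 and 4, and the unmarked Kcnc1 held 30. Kcnj10 lies at chr1:172340960-172341209 (+) and Kcnj13 at chr1:87394730-87394979 (-).
Kcnj10: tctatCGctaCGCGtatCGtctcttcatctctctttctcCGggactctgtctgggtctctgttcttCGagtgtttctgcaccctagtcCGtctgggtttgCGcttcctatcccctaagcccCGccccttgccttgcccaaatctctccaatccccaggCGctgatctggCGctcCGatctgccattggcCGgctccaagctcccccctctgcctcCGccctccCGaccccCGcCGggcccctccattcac
Kcnj13: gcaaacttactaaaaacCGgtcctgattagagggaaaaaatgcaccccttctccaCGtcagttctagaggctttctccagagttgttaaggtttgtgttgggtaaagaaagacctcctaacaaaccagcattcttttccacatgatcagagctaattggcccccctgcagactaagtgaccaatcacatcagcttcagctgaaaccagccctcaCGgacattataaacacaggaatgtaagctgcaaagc
A comparison of CG content over the whole family is void, because only 41 of the 55 genes have a sequence in the table used.

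The first question was how much H3K27me3 the family carried. Of the 55 channel genes, 17 (30.9%) were marked, against 5.41% of all coding genes. From 2 times the median gene the count was 31 of 55 (56.4%), against 16.5%, and from 8 times it was 3 of 55, against 1.87%. The median channel gene had a density of 0.870 ± 0.0178 (SD of the library medians, n = 4), 2.44 times the median gene, and the median over all coding genes was 0.284 ± 0.0037. In all, 47 of 55 channel genes lay above the median gene, as did 41.7% of coding genes. These are descriptions with no test. In 14 of the 55 the interval shares bases with that of another named gene, and such reads cannot be told apart.

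**Figure D1:**
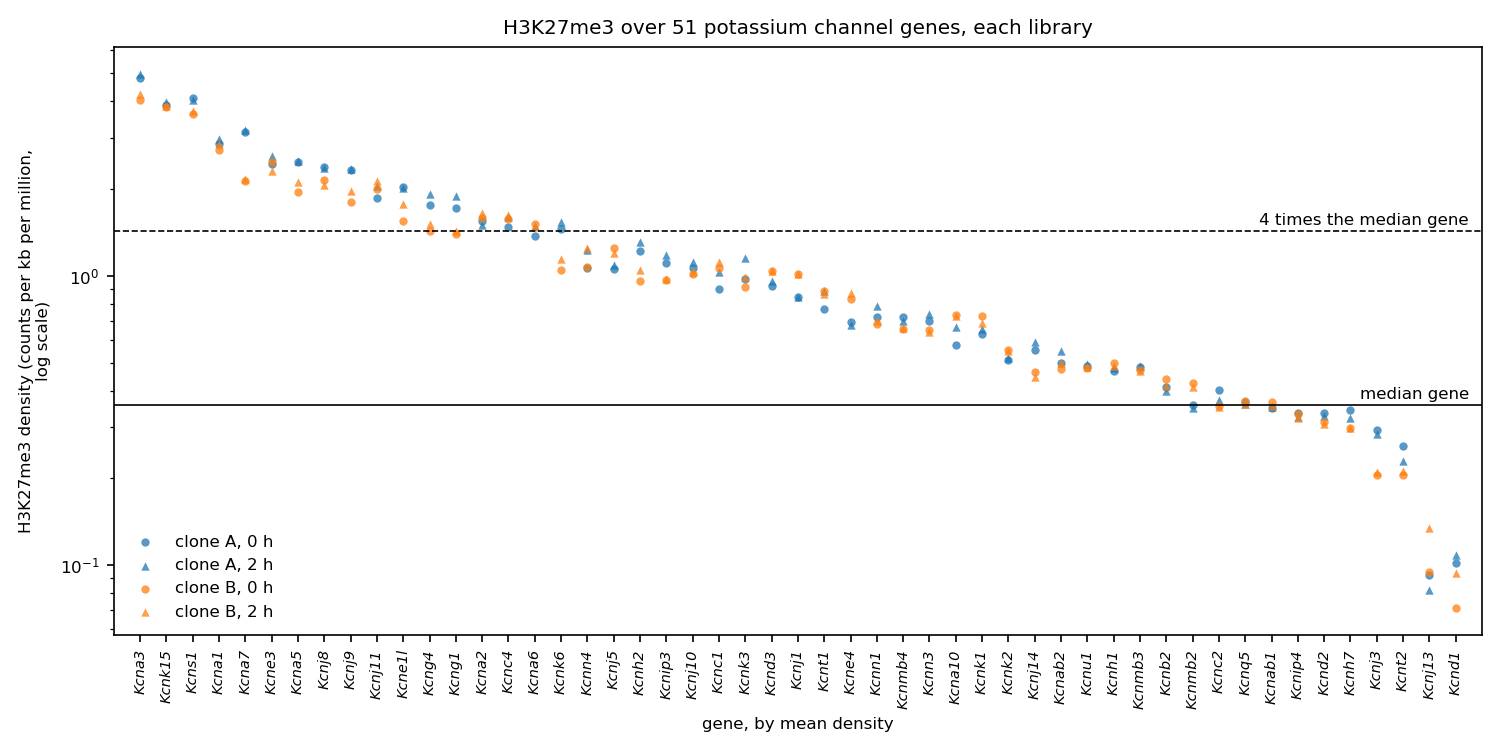
H3K27me3 density (counts per kb per 1000000 counts, log scale) of 51 channel genes in each of the 4 libraries, ordered by mean density. Colours mark the clones and symbols the times. The solid line is the median gene (0.357) and the dashed line 4 times that value (1.43), above which 16 of the genes shown lie by their mean.

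Voltage-gated subunits, which form the pore of channels that repolarize excitable cells, were marked in 8 of 22 cases, and 6 of the 8 belong to the Kcna group of Shaker-related channels. Kcna3, a channel best known from T lymphocytes (chr3:107036162-107038129), was the densest gene of the family, with densities of 4.82 and 4.05 at 0 h and 4.99 and 4.25 at 2 h in clones A and B. Both libraries of clone A lay above both of clone B, and its mean was 12.7 times the median gene. Kcna1, an axonal channel mutated in episodic ataxia (chr6:126636463-126645801), measured 2.84 and 2.71 at 0 h and 2.97 and 2.86 at 2 h, with the clones overlapping. Kcna7, a channel of heart and skeletal muscle (chr7:45405960-45411382), measured 3.14 and 2.13 at 0 h and 3.18 and 2.16 at 2 h, so the clones were well apart. Kcna5, which carries an atrial repolarizing current (chr6:126532551-126535555), measured 2.47 and 1.94 at 0 h and 2.49 and 2.11 at 2 h, again with clone A above clone B.

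Further marked voltage-gated genes were lower and longer. Kcna2, an axonal channel, reached 1.57 ± 0.0621 (SD, n = 4 libraries), Kcnc4, of the fast-activating Shaw-related group, 1.56 ± 0.0638, and Kcna6 1.46 ± 0.0617, just inside the limit of 1.43. Kcna6 passed by its mean and was below the limit in clone A at 0 h (1.368). Kcna10, the remaining Kcna gene measured, was not marked, at 0.675 ± 0.0719. At the other end stood Kcnd1, a transient A-type channel on chromosome X, at 0.0939 ± 0.0163, the lowest density of the family and 0.26 times the median gene, and Kcnh7 of the ether-a-go-go group at 0.315 ± 0.0227.

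Silent voltage-gated subunits form no channel alone and modify delayed rectifier channels when they join them. All 3 measured were marked. Kcns1 (chr2:164163619-164171113) had densities of 4.12 and 3.63 at 0 h and 4.04 and 3.71 at 2 h in clones A and B, with clone A above clone B. Its interval overlaps those of 2 further genes, A730032A03Rik and LOC115486434, whose reads cannot be told apart from its own. Kcng4 had a density of 1.65 ± 0.226 and Kcng1 of 1.60 ± 0.236 (SD, n = 4 libraries). Kcng1 passed by its mean only, with 1.393 at 0 h and 1.427 at 2 h in clone B, below the limit of 1.429. Kcng4 was at the limit in clone B at 0 h (1.429). Kcnb2, a delayed rectifier that such subunits join, was not marked, at 0.416 ± 0.0167.

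Among inward rectifiers 3 of 9 were marked. Kcnj8, the pore of vascular ATP-sensitive channels, stood at 2.23 ± 0.160, Kcnj9, a subunit of G protein-gated channels, at 2.11 ± 0.263, and Kcnj11, the pore of the ATP-sensitive channel of insulin-secreting cells, at 2.01 ± 0.110 (SD, n = 4 libraries). These 3 differed from each other by no more than the sum of their SDs. Kcnj3, another G protein-gated subunit, was at 0.248 ± 0.0466. Kcnj13, a channel of retinal pigment epithelium and choroid plexus, was at 0.101 ± 0.0230, from 66 to 116 counts a library, and its interval lies with that of Gigyf2 on the same bases.

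Two-pore channels carry the leak current at rest, and 1 of 5 was marked. Kcnk15, a TASK-related subunit (chr2:163853750-163858874), had densities of 3.88 and 3.84 at 0 h and 3.98 and 3.86 at 2 h in clones A and B. The 4 libraries were close together, and the gene came second in the family at 10.9 times the median gene, level with Kcns1 within their spreads. Kcnk6 was the densest unmarked gene, at 1.29 ± 0.235 or 3.61 times the median gene. Kcnk2, a mechanically gated channel, was the lowest of its class at 0.534 ± 0.0209.

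Of 6 channels of the group opened by calcium, sodium or pH, 0 were marked. Kcnn4, a calcium-activated channel of blood cells and epithelia, came highest at 1.15 ± 0.0997, and the sodium-activated Kcnt2 lowest at 0.226 ± 0.0233. Accessory subunits were marked in 2 of 10 cases. Kcne3, a single-pass subunit that keeps partner channels open in epithelia, stood at 2.45 ± 0.118, and Kcne1l, a related subunit on chromosome X, at 1.84 ± 0.226 from 182 to 269 counts a library. The lowest accessory gene was Kcnip4, a calcium-binding partner of Kcnd channels, at 0.329 ± 0.00571 over 1135402 bp. Just outside the limit lay Kcnk6, Kcnn4, Kcnj5 (1.15 ± 0.0901), Kcnh2 (1.13 ± 0.157) and Kcnip3 (1.06 ± 0.104).

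Several channel genes adjoin each other. On chromosome 3 the Kcna3, Kcna2 and Kcna10 intervals follow each other at 52722 and 68137 bp, and their densities were 4.53, 1.57 and 0.675. On chromosome 6 Kcna5, Kcna1 and Kcna6 follow at 100907 and 62526 bp with 2.25, 2.84 and 1.46, all marked. Kcnj9 and Kcnj10 lie 11877 bp apart on chromosome 1 with 2.11 and 1.06, and Kcnj5 and Kcnj1 28037 bp apart on chromosome 9 with 1.15 and 0.930. Thus 6 of the 7 measured Kcna genes sit in groups of 3, and 5 of those 6 were marked.

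Marked channel genes were short. Under 10 kb, 11 of 13 were marked, against 11.2% of coding genes of that length. From 10 to 50 kb it was 5 of 20, against 3.62%, and from 50 to 200 kb 1 of 12, against 0.362%. From 200 kb up it was 0 of 10, against 0.166%. Over the 55 genes, density was lower in longer genes, with a Spearman rho of −0.702 (Pearson r −0.622 on log scales), and over the 13205 coding genes rho was −0.0998. Genes share libraries and overlap each other, so these are descriptions across genes. A density over a whole gene averages short dense and long sparse stretches alike.

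Each channel gene was therefore also ranked among coding genes of 0.8 to 1.25 times its length. The median channel gene lay above 90.5% of them. In all, 46 of 55 lay above 50% of the genes of like length, 38 above 75% and 28 above 90%. The unmarked Kcnip3, a calcium-binding protein that joins Kcnd channels, lay above 98.1% of genes of like length. Kcnt2 and Kcnd1 lay below 25%. The long genes Kcnh7, Kcnip4 and Kcnj3 lay above 29.3%, 37.1% and 40.2%, near the middle or under it.

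**Figure D2:**
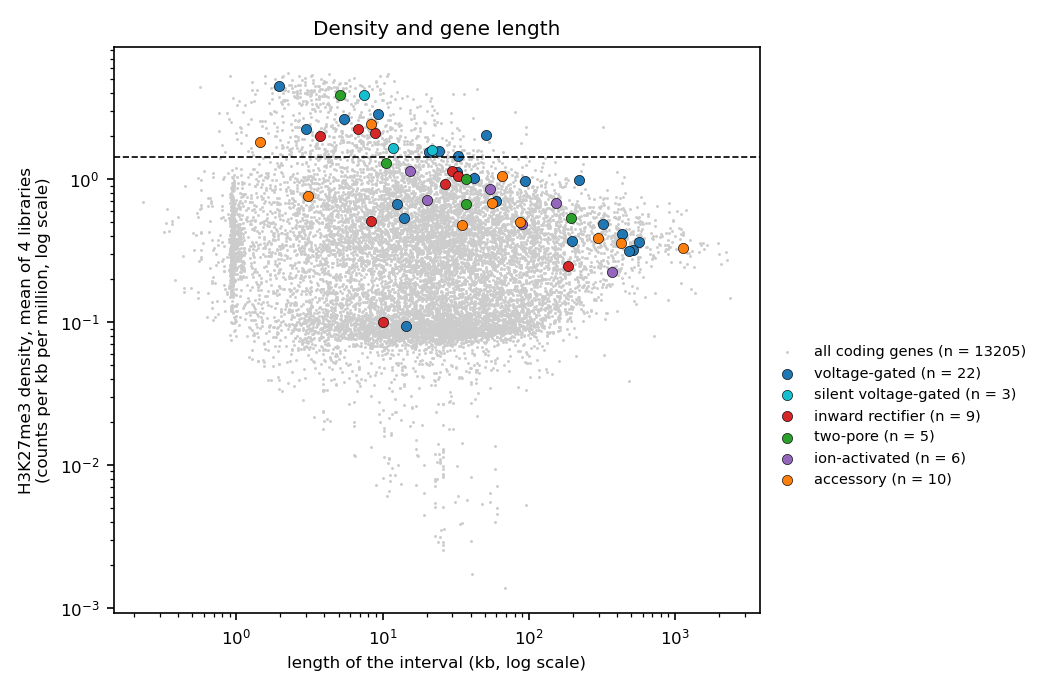
H3K27me3 density (mean of 4 libraries, counts per kb per 1000000 counts) against interval length in kb, both on log scales, for the 55 channel genes coloured by class and all 13205 coding genes in grey. The dashed line is the marked limit of 1.43. The channel genes run from upper left to lower right, and 11 of the 13 under 10 kb lie above the line.

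Where the mark lay within a gene could be read from nested intervals that share 1 end: the count of the longer minus that of the shorter is the count of the stretch between them. The shortest 5′ stretch of at least 1000 bp could be cut out for 23 channel genes. It was denser than the rest of the gene in all 4 libraries in 17 of them (73.9%), against 55.4% of 2518 coding genes. It was sparser in all 4 in 5 of them (21.7%), against 23.6%. It was mixed in Kcnq5 alone, against 530 of the 2518 coding genes. The median ratio of the stretch to the rest was 1.22 in the channel genes and 1.2 in the coding genes, so the family's median was close to that of coding genes. The stretches were also longer, with a median of 21567 bp against 8004.5 bp, and the effect of this on the shares was not tested. In 10 of the 23 the stretch itself reached the marked limit, against 12% of the coding genes.

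Genes unmarked as a whole held dense 5′ stretches. Over the first 1042 bp of Kcnj5, a G protein-gated subunit of atrial cells, the density was 4.35 and 3.94 at 0 h and 4.61 and 4.17 at 2 h in clones A and B, and over the rest of the gene 0.936, 1.15, 0.963 and 1.09. Every library showed the stretch above the rest, 4.27 ± 0.280 against 1.03 ± 0.102 (SD, n = 4 libraries). The first 2864 bp of Kcnh2, the rapid delayed rectifier of heart, measured 3.19 ± 0.362 against 0.931 ± 0.137 over the rest. The first 2087 bp of Kcnj10, the potassium-buffering channel of glia, measured 3.08 ± 0.108 against 0.918 ± 0.0408. These 3 stretches reached 8.62 to 11.9 times the median gene, the level of the densest short channel genes.

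Other genes showed the same layout at lower levels. In Kcnc2, a channel of fast-spiking neurons at the level of the median gene as a whole (0.371 ± 0.0243), the first 1779 bp had 2.23 ± 0.403 and the rest 0.354 ± 0.0222, a ratio of 6.31. In Kcnk1, a two-pore channel, the first 1403 bp had 1.99 ± 0.184 against 0.623 ± 0.0422. Kcne3, marked as a whole, differed less, with 2.69 ± 0.270 over the first 1672 bp and 2.39 ± 0.0998 over the rest. The 5 genes with a sparser 5′ stretch were Kcna2 (1.09 ± 0.120 against 1.76 ± 0.0511), Kcnip3 (0.639 ± 0.0434 against 1.17 ± 0.121), Kcnk2, Kcnab1 and Kcnh7. Where a gene has several starts, such a stretch is the part upstream of an inner start.

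Short intervals of at most 5 kb, from transcripts on the opposite strand, cross the start of some long channel genes and lie mostly upstream of it. At Kcnd3, a transient cardiac channel, the Kcnd3os interval of 4766 bp has 626 bp inside the gene and had a density of 1.68 ± 0.0460, against 0.989 for the whole gene. At Kcnn1, a small-conductance calcium-activated channel, an interval of 2391 bp with 218 bp inside the gene had 2.04 ± 0.328 against 0.721. At Kcnmb4, a subunit of neuronal calcium-activated channels, the Kcnmb4os2 interval of 1825 bp with 380 bp inside the gene had 2.32 ± 0.198 against 0.683. These 3 values are mainly of sequence next to the gene, and each lay above the marked limit while the gene did not. The genes were chosen after these values were seen. How often such intervals pass the limit over all coding genes was not counted, so nothing particular to channel genes is read from them.

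**Figure D3:**
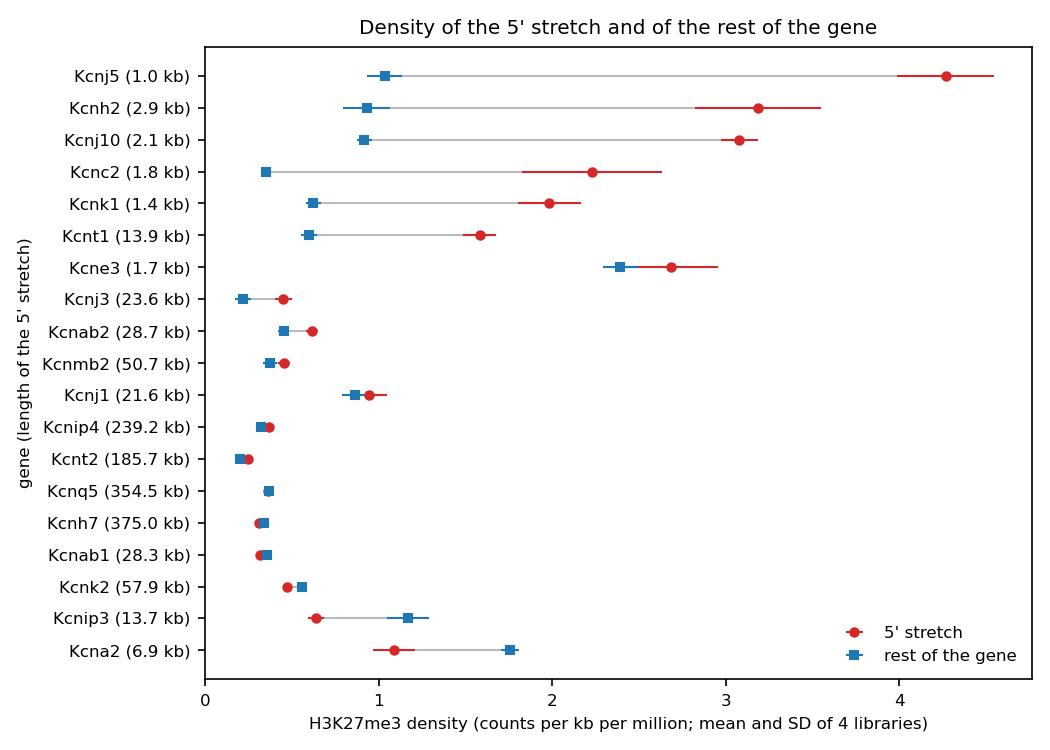
H3K27me3 density (counts per kb per 1000000 counts, mean and SD of 4 libraries) of the 5′ stretch (circles) and the rest of the gene (squares) for 19 of the channel genes in which a stretch of at least 1000 bp could be cut out, with its length in kb. In 13 of the genes shown the circle lies to the right in all 4 libraries, with the widest gaps in Kcnj5, Kcnh2 and Kcnj10.

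Families of other ion channels were read the same way. Of 12 voltage-gated sodium channel genes 1 was marked, of 15 calcium channel genes 0 and of 7 chloride channel genes 0, with medians of 1.5, 1.67 and 1.08 times the median gene against 2.44 for the potassium channels. The sodium and calcium channel genes were also longer, with median lengths of 103001 and 129598 bp against 32588 bp, and the difference between the families was not tested. Of 30 further genes that handle potassium or assist its channels, 25 were measured and 1 was marked. That gene was Lrrc26, a subunit of the calcium-activated BK channel, at 13.4 times the median gene, and 11 of the 25 reached 2 times. The neuronal chloride exporter Slc12a5 and the pacemaker channel Hcn4 lay just under the limit at 3.89 and 3.61 times. The sodium pump subunits used by most cells, Atp1b1 and Atp1b3, were at 0.247 and 0.284 times the median gene. Rest, the repressor of neuronal genes, was at 1.45 times.

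The next question was whether 2 h of 4OHT changed the mark over these genes. With edgeR's quasi-likelihood test, 0 of the 55 genes were called higher at 2 h (background 0%) and 0 lower (background 0%) at a Benjamini-Hochberg adjusted p of 0.05 over 50037 intervals. An unadjusted p under 0.05 was found in 0 channel genes and in 188 (0.376%) of all intervals. With clone as a block, 0 intervals passed and 4 of 55 channel genes had an unadjusted p under 0.05, against 4.15% of all intervals, and with DESeq2 0 intervals passed and 0 channel genes had such a p. Log2 changes ran from −0.08 to 0.24, with a median of 0.02 against 0.01 for all intervals. The 95% intervals of 50 of 55 genes (90.9%) lay within a 1.5-fold change in either direction, against 72.2% of 13106 coding genes. Those of all 55 lay within 2-fold, as did those of 12238 of the 13106 coding genes. With the block all 55 lay within 1.5-fold, and that share was not counted over coding genes. The changes pointed up in both clones in 19 genes, down in both in 8 and opposite ways in 28. The same split was not counted over all coding genes, so no shift of the family is read from it. The 2 libraries of a time are 2 clones of 1 line, and the p-values reflect only how far those libraries lie apart, which may be technical.

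The genes nearest to a change among those that went the same way in both clones are given by value. Kcnn4 measured 1.06 and 1.07 at 0 h and 1.23 and 1.25 at 2 h in clones A and B, so the times did not overlap, with a log2 change of 0.21 (SE 0.10, 95% interval −0.03 to 0.46, edgeR adjusted p = 1.00). Kcnk3, a TASK leak channel, measured 0.974 and 0.912 at 0 h and 1.15 and 0.993 at 2 h, again without overlap, for a log2 change of 0.18 (SE 0.12). Kcnc1, a channel of fast-spiking neurons, went from 0.897 and 1.06 to 1.03 and 1.12, with overlap, a log2 change of 0.13 (SE 0.11). In the other direction Kcnb2, Kcnc2 and Kcnip4 had log2 changes of −0.07, −0.08 and −0.04 (SE 0.07, 0.10 and 0.06). The SEs above are from the fit without clone as a block. With the block, the 95% intervals lay above 0 for Kcnn4 (0.08 to 0.34), Kcnk3 (0.07 to 0.28) and Kcnc1 (0.03 to 0.24). Those of Kcnb2, Kcnc2 and Kcnip4 included 0. Kcnh2 (0.002 to 0.22) completed the 4 genes with an unadjusted p under 0.05 in that fit, and none passed after adjustment. Single libraries moved several of the log2 changes. Kcnk3 was at 0.050 without the 2 h library of clone A, Kcnc1 at 0.012 without its 0 h library, and Kcnc2 turned to 0.018 without the same one. Without the 0 h library of clone B Kcnb2 was at −0.029, and Kcnn4 stayed between 0.199 and 0.214 whichever library was left out.

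**Figure D4:**
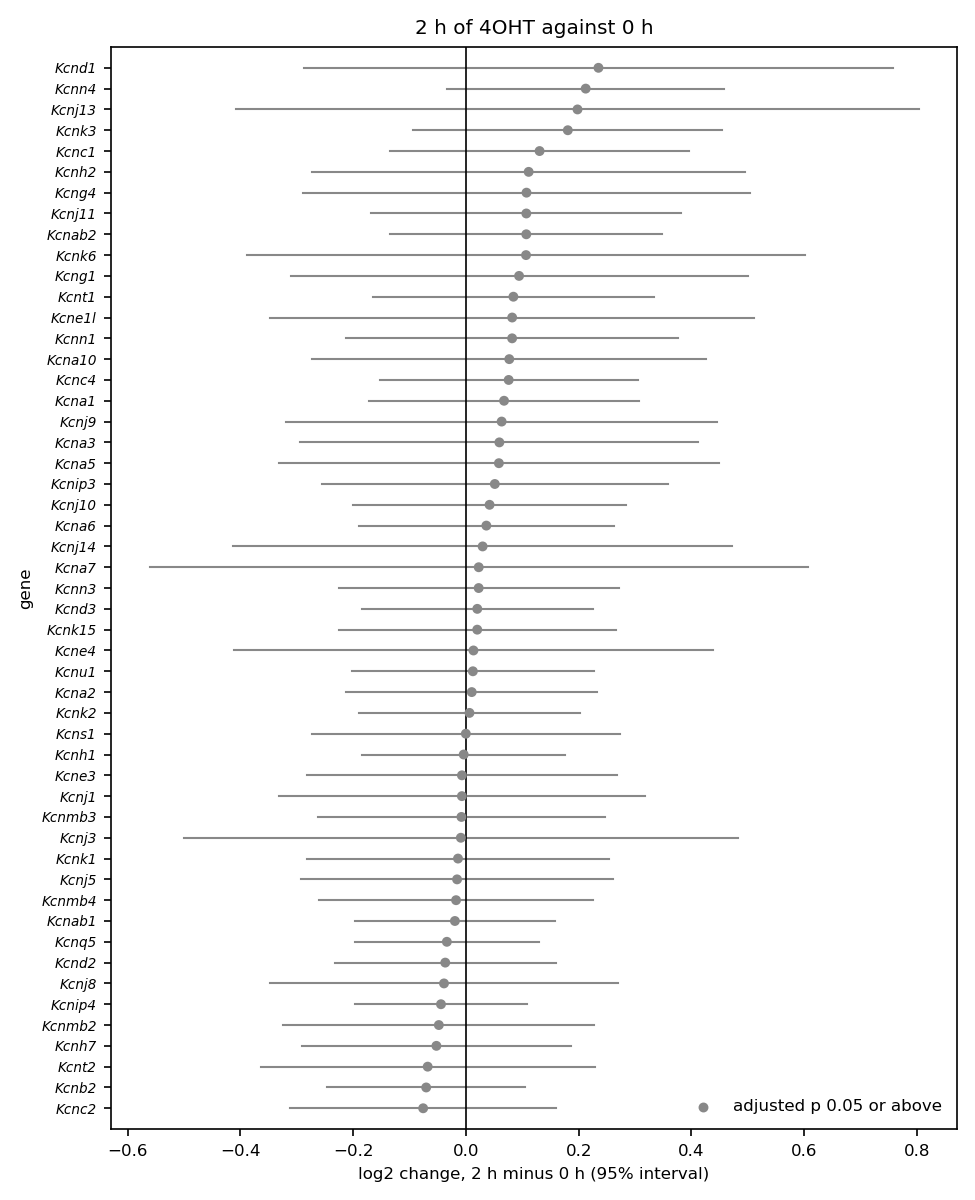
Log2 change in H3K27me3 counts from 0 h to 2 h of 4OHT (edgeR without a clone block, point and 95% interval) for 51 channel genes. None passed an adjusted p of 0.05, and the points run from −0.08 (Kcnc2) to 0.24 (Kcnd1, at the lowest density).

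The libraries of the clones were compared next. In edgeR's test of clone A against clone B, which has the 2 times as its 2 libraries per clone, 20 of the 55 genes were higher in clone A (16.8% of coding genes and 17.3% of all intervals) and 6 were higher in clone B (8.68% and 10.3%). The median log2 difference was 0.11, against 0.00 for coding genes, and it was 0.041 without the 2 h library of clone A. With time as a term, the counts were 20 (background 16.4% of coding genes and 16.9% of all intervals) and 6 (8.39% and 9.91%). DESeq2 called 14 and 4 of the 55 genes, beside 5666 and 3028 of 50398 intervals. The calls for clone B were fewer without the 0 h library of either clone, among the 55 genes as over all intervals. Both libraries of clone A lay above both of clone B in 29 of the 55 genes (28.5% of coding genes), below in 14 (29.5% of coding genes), and overlapped in 12. This compares these 2 clones and not clones in general.

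Kcna7 had the widest gap among the called genes, with a mean of 3.16 ± 0.0326 in clone A against 2.15 ± 0.0188 in clone B (SD, n = 2 libraries), a log2 difference of 0.58 (SE 0.07, edgeR adjusted p = 1.65e-15). The sparse gene Kcnj3 had 0.288 ± 0.00631 and 0.207 ± 0.00391, a difference of 0.49 (SE 0.05, edgeR adjusted p = 8.32e-18). Kcnk6, Kcng1, Kcnh2, Kcng4 and Kcnj9 had differences of 0.47, 0.37, 0.35, 0.35 and 0.32. Kcna5 (0.31), Kcnip3 (0.26), Kcnt2 (0.24) and Kcnh7 (0.18) were also called, but Kcna5 lost its call without the 0 h library of clone B, and Kcnh7 lost it without the 0 h library of clone A or the 2 h library of clone B. In the other direction Kcnj1, an inward rectifier of kidney, had 0.844 ± 0.000808 in clone A against 1.02 ± 0.000278 in clone B, a difference of −0.25 (SE 0.06), and Kcnmb2, a subunit of calcium-activated channels, −0.23 (SE 0.05).

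By class, all 3 silent subunits were higher in clone A, as were 8 of 22 voltage-gated genes, 4 of 9 inward rectifiers, 2 of 5 two-pore channels, 2 of 6 ion-activated channels and 1 of 10 accessory genes, beside 16.8% of coding genes. Higher in clone B were 3 voltage-gated genes, 2 inward rectifiers and 1 accessory gene and 0 of the other classes, beside 8.68%. These are edgeR calls. DESeq2 did not call Kcns1, Kcna3, Kcnc2, Kcnj14, Kcnj8 and Kcnk3 (DESeq2 adjusted p = 0.058, 0.063, 0.054, 0.069, 0.105 and 0.420). For clone B it did not call Kcnc1 and Kcna10 (DESeq2 adjusted p = 0.087 and 0.148). The libraries of Kcnk3 overlapped between the clones. Among the 17 marked channel genes 8 were higher in clone A (47.1%) and 0 in clone B, with a median difference of 0.17. Marked coding genes as a whole were higher in clone A in 64.1% of cases and in clone B in 2.24%, with a median of 0.22. Among the 38 unmarked channel genes 12 were higher in clone A (31.6%) and 6 in clone B (15.8%), with a median of 0.06. Among unmarked coding genes the shares were 14.04% and 9.05%. The unmarked groups were not matched for density or length. With marked genes included, the median channel gene was at 2.44 times the median gene and the median coding gene at 0.794 times. Kcnk15, Kcna1 and Kcne3, all marked, were not called, with log2 differences of 0.05, 0.08 and 0.09 (SE 0.06 each).

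**Figure D5:**
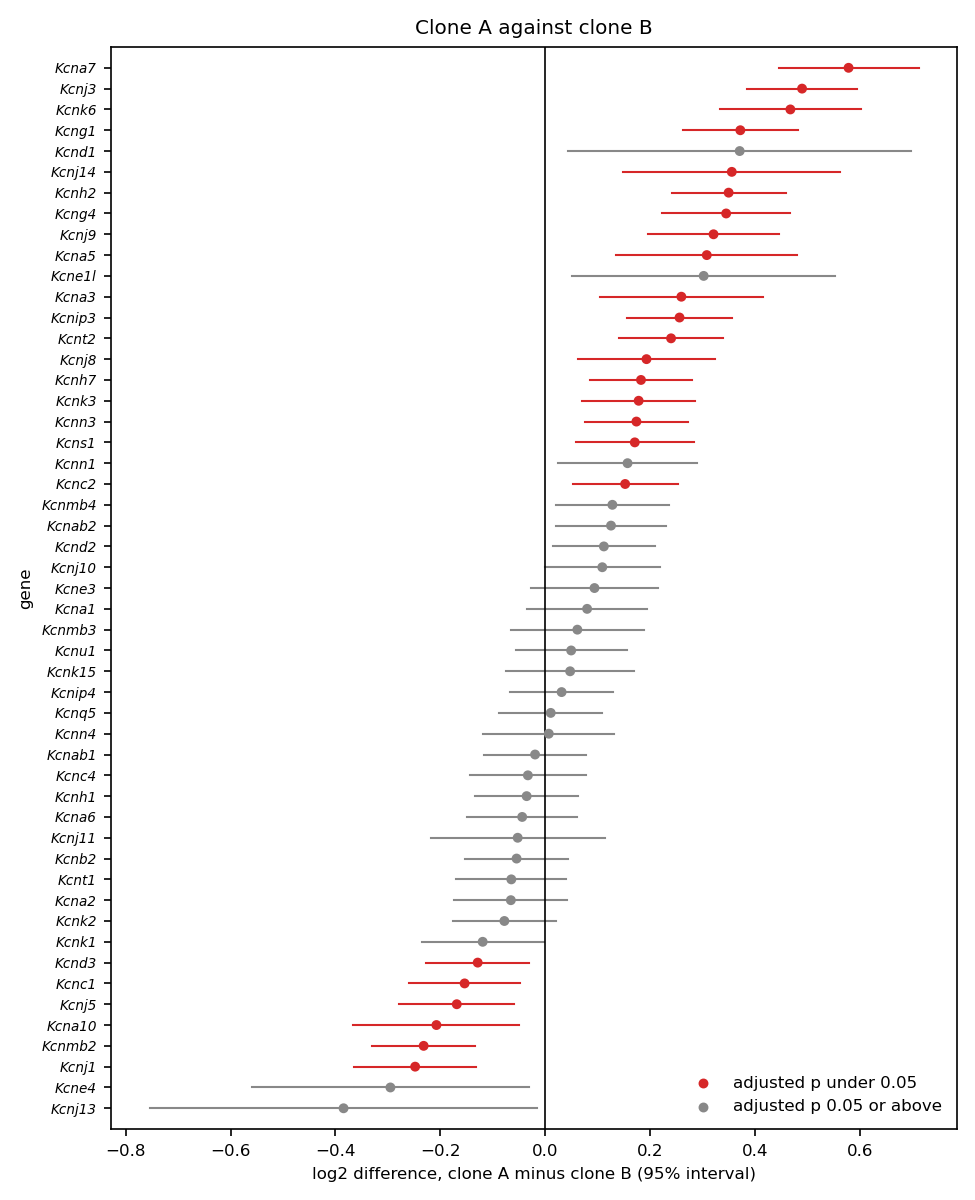
Log2 difference in H3K27me3 counts between clone A and clone B (edgeR, point and 95% interval) for 51 channel genes, with those past an adjusted p of 0.05 in red. There are 18 red points above 0, up to 0.58 (Kcna7), and 6 below 0.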

How the data were processed

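H3K27me3 ChIP-seq libraries of 2 clones at 2 times were analysed. Per interval of a transcript the authors deposited whole-number counts of reads, introns included, per the file headers. Bowtie2, bedtools and mm10 are named in the submitters' processing notes. Their versions, and how overlaps were counted, were not given in the sources used here. A further 12 per-library columns were not used. Of the intervals, 84.8% share bases with another, so reads can be counted more than once and column totals are not sequencing depths. File starts were read as 0-based, since 20102 then equal RefSeq (GRCm38.p6) starts and 725 otherwise. Coordinates printed are 1-based.

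Counts were tested with edgeR 4.0.16 (quasi-likelihood, TMM factors, filterByExpr; 50037 intervals), adjusted by Benjamini-Hochberg over all of them and read at 0.05. The scripts were tested on simulated data. DESeq2 1.42.0 was tried as another tool, with other factors and filters, clone or time as a term, other overlap limits, and leaving out each library in turn, where a lone library is assumed to vary like the others. R 4.3.3, Python 3.11.15 and pandas 2.3.3 were used. Density was computed from the counts, not over input.

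Clone letters pair the libraries, because per the labels each clone was taken at 0 h and at 2 h. Deviations of the 2 libraries of a clone from their time means correlated at 0.655 over the 50037 intervals and at 0.839 over the 55 genes.

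The genes, lists and limits were chosen with earlier results of these data known. The genes named were the marked ones, the 5 just below the limit, the 5 of lowest density, the extremes of each class, up to 15 called ones per comparison by smallest p (or, with none called, 3 per direction that went the same way in both clones), adjoining ones, and the 5 with the largest difference within the gene. Further genes with 5′ stretches or start intervals (Kcne3, Kcnk2, Kcnab1, Kcnq5, Kcnd3, Kcnn1, Kcnmb4) and the stretch comparison were chosen after their values were seen. The values of some genes are not reported here, and counts over the family include them.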

Additional observations from a re-analysis of the deposited data

Results flagged for a closer look

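The median log2 change of the 55 channel genes from 0 h to 2 h was 0.070 for clone A and −0.011 for clone B, and these differ by 0.0817. It is listed because the only pair of libraries of each clone moved in opposite directions. The difference was not tested, and each clone has 1 library per time.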

How the results depend on the processing

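The number of marked channel genes was 17 under 3 other ways of matching intervals and without any 1 library, and 21 with the median taken over coding genes of at least 1000 bp; it was 31 at 2 times and 3 at 8 times the median gene. The median density was 0.902 when an overlap of at least 0.8 left 54 genes, and 0.866 to 0.879 without 1 library. The count of denser 5′ stretches, with alternatives chosen after seeing the data, was 18 and 14 for stretches of at least 500 and 2000 bp and 17 without any 1 library. The comparison of times gave 0 calls among the channel genes in every setting, the replicate block (clone) included, and its median change ran from −0.039 (without the 2 h library of clone A) to 0.063 without 1 library. For single named genes it kept its direction in 65 of 66 settings. The exception was Kcnc2, at 0.018 without the 0 h library of clone A and −0.171 without that of clone B. These genes were picked by smallest p among those that went the same way in both clones. A kept direction was thus largely set by that choice and is no check of the time comparison. In the whole family, 28 channel genes went opposite ways in the clones. With time as a block the clone calls stayed at 20 and 6. Without 1 library, calls for clone A ran from 14 to 22 and for clone B from 2 to 7, and the median difference from 0.041 to 0.115. Of 165 settings for single named genes, 3 ended a clone call: Kcnh7 at 0.14 in 2 of them and Kcna5 at 0.26. The genes in these settings were the 15 called with the smallest p, so calls nearer the threshold were not followed there. Over the family DESeq2 called 14 genes higher in clone A and 4 higher in clone B, against 20 and 6 in edgeR. Over all intervals DESeq2 called 5666 and 3028 of 50398, against 8633 and 5132 of 50037 in edgeR. Leaving out a library leaves 1 group with 1 library, and the cause of the shifts without 1 library was not tested. No value was divided by input, so mappability and copy number are not accounted for, and Kcnd1 and Kcnj13 rest on fewest counts, 66 to 146 a library.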
